A study of Homo sapiens with 8 samples.

Results

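Cytosolic ribosomal protein genes were examined by RNA-seq in the human mammary epithelial lines M1 to M4, which were derived from one another. The members were the protein-coding genes whose symbol begins with RPL or RPS followed by a number, or reads RPLP0, RPLP1, RPLP2 or RPSA, without the RPS6K kinase genes and without pseudogenes. This rule found 89 of the 56632 gene rows of the count table. They comprised 77 core genes (46 of the large 60S subunit and 31 of the small 40S subunit), 9 paralogs of core genes, 2 readthrough genes that join a ribosomal protein gene to its neighbour, and RPS19BP1, which carries the letters but encodes a protein that binds RPS19. Of the 89, 87 passed the filter on low counts, and RPL10L and RPS4Y1 did not.

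M1 is MCF10A, a spontaneously immortalized line that forms no tumours. M2 (MCF10AT1k.cl2) carries the activated oncogene T24-HRAS on the MCF10A background and had been passed through mice as a graft. Grafted M2 cells sometimes gave carcinomas, which were the source of MCF10Ca1h (M3) and MCF10CA1a.cl1 (M4), so M2, M3 and M4 share the HRAS transgene. Each line is a selected derivative, and no second isolate of a stage was sequenced. All 4 lines were grown as 3D structures in Matrigel for 8 days with 2% horse serum, hydrocortisone, cholera toxin and insulin. The medium of M1 and M2 also held EGF at 10 ng/ml, and the medium of M3 and M4 held none, so line and EGF cannot be told apart when M3 or M4 is set against M1 or M2. There were 2 biological replicates of each line, 8 libraries in all, with 69669970 to 107350344 counts per library. The 5 basal and 4 general epithelial markers checked (such as KRT5, TP63, KRT8 and EPCAM) were all above 1 CPM (counts scaled to the same total in every library) in every line, while the summed fibroblast markers did not exceed 74.2 CPM and the endothelial markers did not exceed 0.345 CPM. All CPM values below were also divided by a scaling factor of each library (TMM). That factor ran from 0.902 for M3 replicate 1 to 1.06 for M4 replicate 1.

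The cytosolic ribosome joins a small subunit, which reads the messenger RNA, to a large subunit, which forms the peptide bonds. Its proteins are made in matched amounts from single-copy genes scattered over the genome, and their mRNAs are among the most abundant in growing cells. Most of these mRNAs begin with a C followed by a run of pyrimidines, the 5′ terminal oligopyrimidine (TOP) motif, through which mTORC1 and the RNA-binding protein LARP1 control their translation and storage. Some ribosomal proteins have further roles outside the ribosome, such as the binding of the ubiquitin ligase MDM2 by RPL5 and RPL11.

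Before any comparison, 2 libraries need mention. In the study's own expression table the M1 replicate 2 column resembled the library labelled M2 replicate 1 most, and the M2 replicate 1 column resembled the library labelled M1 replicate 2. This likeness was taken over 204 genes. The labels are used here. In the counts the labelled pairs were alike for genes that separate M1 from M2 as labelled, such as TCOF1, with 97.7 and 95.5 CPM in M1 and 223 and 221 in M2, and EBNA1BP2, with 91.8 and 98.9 CPM in M1 and 167 and 162 in M2. Such genes were picked by the labels, so their likeness cannot test the labels. Counts of members called, core medians and the fitted changes of named members were also computed without these 2 libraries and with them exchanged, but count shares, paralog ratios and the other gene lists were not. The replicates of M3 differed most. Per degree of freedom, a chi-square of replicate 1 against replicate 2 came to 361 for M3, 283 for M1, 136 for M4 and 6.95 for M2. An exchange of M1 replicate 2 and M2 replicate 1 would put the libraries of the M2 pair, the most alike, in different lines. Whether the labels hold was not tested.

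The 77 core genes took a smaller share of the library from M1 to M4. They held 14.3% and 16.4% of all counts in the M1 libraries and 11.9% and 11.7% in M2. The M3 libraries gave 13.2% and 8.95%, and the M4 libraries 7.43% and 7.80%. Their means were 15.4% ± 1.495 (SD, n = 2) for M1, 11.8% ± 0.121 for M2, 11.1% ± 3.01 for M3 and 7.61% ± 0.262 for M4. Both M4 libraries lay below all 6 others, the M2 libraries lay below both M1 libraries as labelled (though not with M1 replicate 2 and M2 replicate 1 exchanged), and the M3 libraries spanned the M2 range. The 60S genes gave 9.40% ± 0.958 in M1 and 4.59% ± 0.119 in M4, and the 40S genes gave 5.99% ± 0.538 and 3.02% ± 0.143. These shares were not tested. Counts are shares of a library, so that an amount of ribosomal protein mRNA per cell was not measured, and in bulk RNA fewer cells of a type and less RNA per cell cannot be told apart.

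Gene by gene, M4 was mostly the lowest line. In 61 of the 77 core genes (79.2%) both M4 libraries were below all 6 other libraries, compared with 3030 of the 18431 genes tested (16.4%). M1 replicate 2 was the highest of the 8 libraries for 58 core genes and M3 replicate 1 for 17. Relative to its mean in M1, the median core gene stood at −0.33 and −0.35 on the log2 CPM scale in the M2 libraries, −0.04 and −0.80 in M3, and −1.11 and −0.98 in M4. All 77 core genes were higher in M3 replicate 1 than in M3 replicate 2, by 1.67-fold at the median. The TMM factors of these libraries, 0.902 and 1.01, are part of that gap. The replicates of M1, M2 and M4 differed by 1.18-fold, 1.03-fold and 1.06-fold at the median.

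**Figure D1:**
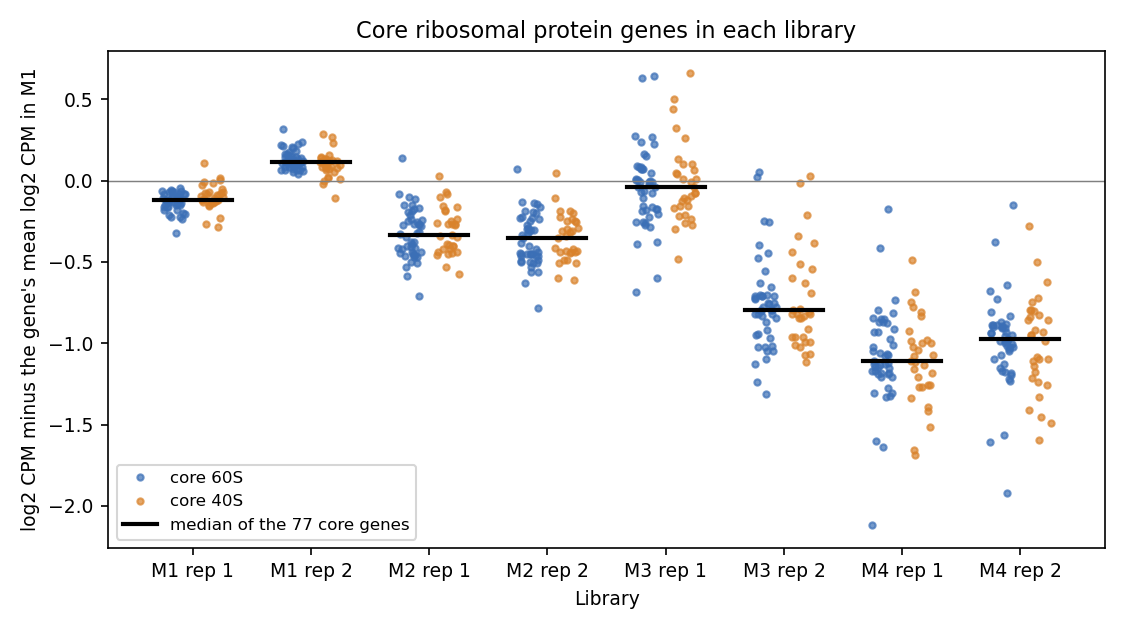
Level of each of the 77 core ribosomal protein genes in each of the 8 libraries, as log2 CPM minus the mean log2 CPM of that gene in M1; points are genes, blue for 60S and orange for 40S, and the black line is the median. The medians fall to −1.11 and −0.98 in the M4 libraries, and the M3 libraries stand apart at −0.04 and −0.80.

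Per length, the core genes covered a wide range of levels. TPM, which divides counts by transcript length before scaling each library to one total, was computed here with the annotated canonical transcript. The median core gene had 3662 TPM in M1 and 2920 in M2, 2758 TPM in M3 and 2107 in M4. The upper quartile of the 77 TPM values exceeded the lower by 2.27-fold in M1 and by 2.47-fold in M4. The 5 highest by their mean TPM over the 8 libraries were RPS18 with 7447, RPL7A with 7264, RPL13A with 7035, RPLP0 with 6276 and RPS2 with 6102. The 5 lowest were RPL14 with 227, RPL37 with 291, RPL28 with 418, RPS28 with 427 and RPL27A with 459. These 5 have annotated canonical transcripts of 1330 to 7573 bases, against 549 to 1127 bases for the 5 highest, and the annotated length enters the value directly. With the length of the merged exons in its place, Spearman's rho between both orders was 0.725 across the 77 genes. RPL7A was second in both orders, while RPS18 moved from first to place 7, so the order depends on the annotated length.

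Counting was less certain for a few members. The table holds 1490 pseudogene rows named after members, of which 700 had a count. Summed over libraries, the pseudogene counts were 70.9% of those of the parent for RPL9, 54.8% for RPL41, 46.1% for RPS28 and 43.9% for RPL23A. They were under 1% for 56 of the 77 core genes, with a median of 0.185%.

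The start of the transcripts was read from RefSeq promoter windows (GRCh38.p14), in which 62 of the 77 core genes were matched. A start tract was scored where a run of at least 5 pyrimidines beginning with C started within 10 bases of the annotated start. Of the 62 core promoters, 55 held such a tract, or 88.7% (Wilson 95% interval 78.5% to 94.4%), compared with 33.3% of the 27305 promoters in the table. With a run of at least 8 the shares were 72.6% and 9.08%. The median run in core promoters was 11 bases. In 8 of the 62 the run began at the annotated start itself, and in 22 within 2 bases of it. Among the 7 paralogs matched, 3 held a tract. The windows below show 10 bases before the annotated start and 18 from it on, with the tract in capitals. They are given for the core gene with the largest fitted fall in M4 (RPL13A, plus strand, chr19:49487598-49487625), for core genes with 2 of the 3 smallest (RPL24, minus strand, chr3:101686701-101686728, and RPS6, minus strand, chr9:19380219-19380246), and for core genes beside their paralogs (RPL22, minus strand, chr1:6199578-6199605; RPL22L1, minus strand, chr3:170870178-170870205; RPS27, plus strand, chr1:153990752-153990779; RPS27L, minus strand, chr15:63157460-63157487; RPL26, minus strand, chr17:8383176-8383203; RPL26L1, plus strand, chr5:172958719-172958746).
RPL13A: aaaCCTCCTCCTTTTCCaagcggctgcc
RPL24: atgattCTCTCTTTCTTTTCgccatctt
RPS6: gaagttggCCCTCTTTTCCgtggcgcct
RPL22: cgctcaCCTCCCTTTCTaactccgctgc
RPL22L1: ccgtagCTTCCTCTCTgctctcgcggcc
RPS27: cgctttcgCTCCTTTCCggcggtgacga
RPS27L: gatgccgagcgcagatcgcttgcagctt
RPL26: gcgtgtagttCTCTTCCCTTTTgcggcc
RPL26L1: tccaggggtcggcgaacgaaacgcggag
RPL22 and RPL22L1 both held a tract, as did RPL36A and RPL36AL (runs of 10 and 12 bases), whereas in the RPS27 and RPL26 pairs only the core gene did. The median log2 fold change of M4 against M1 was −1.03 for the 55 core genes with a tract and −1.02 for the 7 without, of which 48 and 7 were called. In M4 against M2 the medians were −0.73 and −0.62, with 20 and 0 called, and in M4 against M3 they were −0.70 and −0.58, with 10 and 1 called. Of all genes tested, 31.4%, 22.2% and 16.8% were called in these 3 comparisons, in that order. The differences between core genes with and without a tract were not tested. The core promoters also held the letters CCGGAAG, an ETS-like site searched on both strands, in 33.9% of cases compared with 10.7% of all promoters. AAGATGGC, a YY1-like site, was found in 9.68% and 3.03%, and TATAAA in 8.06% and 11.95%. A match is only a match of letters in these windows, and on the reverse strand both CCGGAAG and AAGATGGC hold pyrimidines that a start tract can share.

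M4 against M1 is the comparison between the most malignant line and the parent line. Core ribosomal protein genes were lower in M4 almost throughout. Of 77 tested, 68 fell (edgeR's quasi-likelihood test, adjusted p under 0.05 over all 18431 genes), none rose, and all 77 had a fitted change below 0. The median log2 fold change was −1.03, a level of 0.489 of that in M1, whereas the median of all genes tested was −0.02. In this comparison 31.4% of all genes tested were called and 15.8% were called lower. Both M4 libraries lay below both M1 libraries in 76 of 77 core genes, against 33.9% of all genes, and 44 core genes were called with a fall over 2-fold, against 11.2% of all genes. By subunit, 41 of 46 genes of the 60S subunit and 27 of 31 of the 40S subunit fell, with medians of −1.03 and −1.02. Of the 87 members tested, 71 were called: the 68 core genes, RPL22L1, which was lower, and RPL39L and RPS27L, which were higher, where 15.6% of all genes were called higher. With a 2-fold limit 45 members were called, against 20.7% of all genes. The number called rests on single libraries, being 23 without M1 replicate 2, 10 without M4 replicate 1, 14 without M4 replicate 2, 9 without M1 replicate 2 and M2 replicate 1, and 3 with these exchanged. All 77 fitted changes stayed below 0 in each of these fits, and the core median stayed between −1.12 and −0.81. Short transcripts that encode other proteins were lower too, though less so: 828 tested coding genes with a canonical transcript under 1000 bases had a median of −0.27, with 187 called lower and 92 higher. Mitochondrially encoded transcripts held 5.98% ± 1.23 of counts in M1 and 3.51% ± 0.120 in M4, and the part of these shifts in the core genes' values was not tested.

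The largest falls among the called core genes were in genes of the long arm of chromosome 19 (19q). RPL13A (ENSG00000142541, GRCh37 chr19:49990767-49996314), a 60S protein that also acts in the interferon-induced GAIT complex, had 7249 and 8340 CPM in M1 and 4751 and 4522 in M2, against 5143 and 3132 CPM in M3 and 1789 and 2050 in M4. Both M4 libraries were below every other library and both M1 libraries above every other, and the fall from M1 to M4 was 4.06-fold (log2 fold change −2.02, SE 0.265, adjusted p = 0.00162). RPL18 had 1871 and 2298 CPM in M1 and 684 and 679 in M4, a 3.06-fold fall (adjusted p = 0.00341). RPL28, a 60S protein, had 1510 and 1652 CPM in M1 and 507 and 534 in M4, a 3.04-fold fall (adjusted p = 0.00157). RPS16, a 40S protein whose tail reaches the P site, fell 2.76-fold (adjusted p = 0.00591). RPL13A and RPL28 stayed called in every alternative fit, including the exchange of the 2 libraries.

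At the other end, 9 core genes were not called. RPL24 had 836 and 985 CPM in M1 and 817 and 794 in M2, against 1415 and 943 CPM in M3 and 804 and 820 in M4. Both M4 libraries lay just below M1 replicate 1, and the log2 fold change was −0.17 (SE 0.213, adjusted p = 0.590). RPL35A, a gene mutated in some families with Diamond-Blackfan anaemia, had −0.40 (adjusted p = 0.195). RPS6, the 40S protein that S6 kinases phosphorylate, had 3416 and 5082 CPM in M1 and 2974 and 3440 in M4, so that the lines overlapped (log2 fold change −0.41, SE 0.299, adjusted p = 0.337). RPL14, RPL21, RPL35, RPS20 and RPS24 had fitted changes between −0.76 and −0.73 with adjusted p between 0.0507 and 0.0634.

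The position of a gene on the chromosomes went with the size of its change. This grouping was chosen after the values were seen and is given as a description. The 8 core genes of 19q, among them RPL13A, RPL18, RPL28, RPS9, RPS16 and RPS19, had the 8 lowest fitted changes of the 77, from −2.02 to −1.38. The other 543 tested coding genes of 19q had a median of −0.63 in M4 against M1, 218 of them called lower and 37 higher. On 19p the 4 core genes had a median of −0.99 and the other 444 coding genes a median of 0.01. On 3q, where RPL24 and RPL35A lie, the other 398 coding genes had a median of 0.61, with 184 called higher and 38 lower. On 9p, where RPS6 lies, the median of the other coding genes was 0.43. These were the lowest arm and the pair of highest arms among those with a core gene. When the median of the other coding genes on its arm was taken from each core gene's change, the 77 values narrowed. Their SD fell from 0.278 to 0.164, their range from 1.86 to 0.691 on the log2 scale, and their median was −1.01. On this scale the 19q genes had a median of −0.95 and the 69 others −1.03. RPL24, RPL35A and RPS6 then stood at −0.78, −1.01 and −0.83, and RPL13A, at −1.39, was the lowest of all 77. Gene copy number was not measured, and its part in the shifts of these arms was not tested.

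The shift of 19q was also seen in the other comparisons with M4, which share its libraries, whereas that of 3q was seen in M4 against M2 but not M4 against M3. In M4 against M2 the other coding genes of 19q had a median of −0.55 and those of 3q 0.59, with core medians of −1.07 and −0.13 on the same arms. In M4 against M3 the medians of other coding genes were −0.39 on 19q and 0.00 on 3q, with core medians of −0.91 and −0.65. On 2p the other coding genes had a median of −0.44 in that comparison, and the core genes −1.11. The SD of the 77 core changes went from 0.225 to 0.183 in M4 against M2 and from 0.223 to 0.204 in M4 against M3 when the arm median was taken away. In M3 against M1 the other coding genes of 3q had a median of 0.58, RPL24 and RPL35A had 0.37 and 0.35, and the SD of the 77 core changes went from 0.257 to 0.172.

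**Figure D2:**
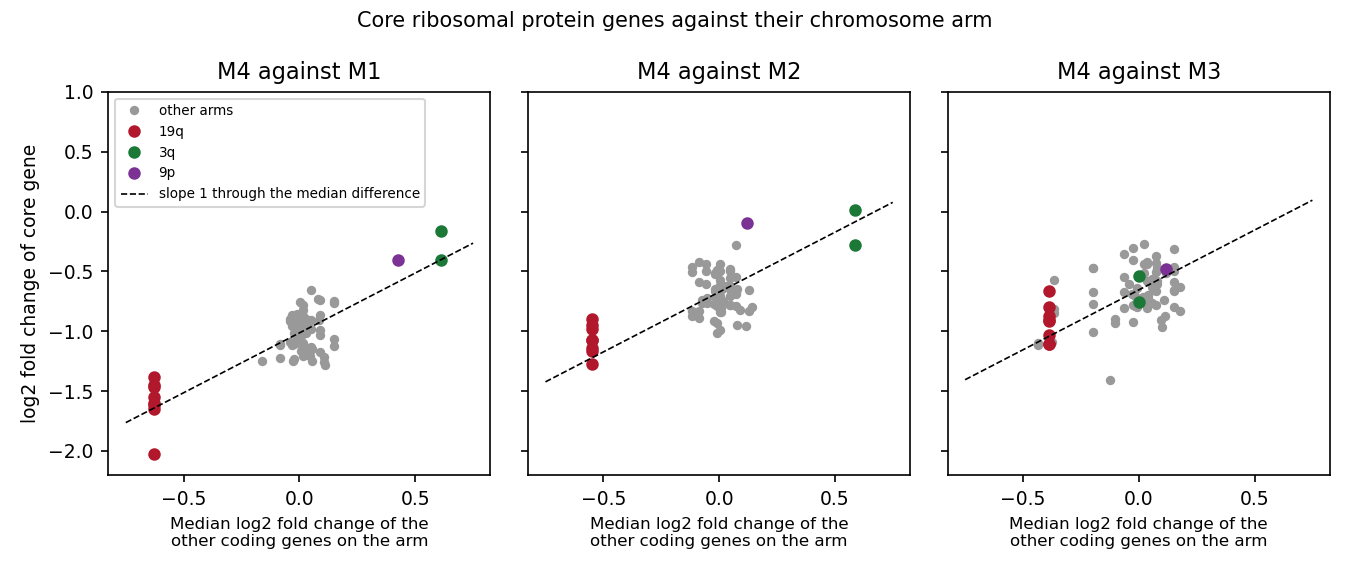
Fitted log2 fold change of each of the 77 core genes (y axis) against the median log2 fold change of the other coding genes on the same chromosome arm (x axis), in the 3 comparisons with M4, which share the M4 libraries; the dashed line has slope 1 and passes through the median difference. In M4 against M1 the genes of 19q lie at an arm median of −0.63 and those of 3q at 0.61, and the core genes follow along the line with an offset of −1.01.

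Other features did not order the core genes. Across the 77 genes, which are not independent, Pearson's r of the M4 against M1 change was −0.06 with the log2 transcript length and −0.07 with the log2 TPM. The 29 core genes that hold a snoRNA within their span, 60 snoRNA genes in all, had a median change of −1.04, and the 48 without had −1.02.

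Core genes with special roles moved with the rest. The stalk genes RPLP0, RPLP1 and RPLP2, whose proteins recruit the GTPases of translation, all fell in M4 against M1, with log2 fold changes of −0.98, −0.92 and −0.91 (adjusted p = 0.0270, 0.00737 and 0.0117). RPL5 and RPL11, which carry 5S rRNA into the large subunit, fell by 1.01 and by 0.89 on the log2 scale (adjusted p = 0.0232 and 0.0252). RPSA, also known as the laminin receptor precursor, had 2789 and 2883 CPM in M1 and 1432 and 1690 in M4, and it fell by 0.86 (adjusted p = 0.0302). RPS27A, made as a fusion with ubiquitin, fell by 0.95 (adjusted p = 0.00728). FAU, a ribosomal protein gene fused to a ubiquitin-like sequence that the rule leaves out for its name, had −0.44 and was not called (adjusted p = 0.158). Of 14 core genes known from Diamond-Blackfan anaemia, an inherited failure of red cell production, 11 fell, with a median of −0.94. In the same comparison 68 of all 77 core genes and 15.8% of all genes tested fell. RPS19, the first gene linked to that disease, fell by 1.45 (adjusted p = 0.00627).

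M4 against M2 and M4 against M3 showed smaller falls, and they share the M4 libraries with the comparison above. The 828 other short coding genes had medians of −0.34 in M4 against M2 (176 called lower, 56 higher) and −0.35 in M4 against M3 (168 lower, 32 higher). In M4 against M2, 26 members were called, all lower, of which 24 were core genes. In this comparison 22.2% of all genes tested were called, 11.1% in each direction. With a 2-fold limit 7 members were called, against 13.9% of all genes. The core median was −0.71, and 76 of 77 fitted changes were below 0. RPL13A fell 2.42-fold (adjusted p = 0.0129), RPL28 2.20-fold (adjusted p = 0.00823) and RPL18 2.10-fold (adjusted p = 0.0218). The number called was 1 without either M2 library or without M4 replicate 1, 2 without M4 replicate 2, and 75 without either M3 library. It was 1 without M1 replicate 2 and M2 replicate 1, 11 with them exchanged, 47 with DESeq2, and 80 in a fit of M2 and M4 alone. The core median kept between −0.92 and −0.65 in these fits.

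In M4 against M3, 15 members were called, all lower, including 12 core genes, where 16.8% of all genes tested were called, 9.72% lower and 7.05% higher. With a 2-fold limit 9 members were called, against 10.3% of all genes. The core median was −0.67 and all 77 fitted changes were below 0. RPS29, a zinc-binding 40S protein, had 948 and 519 CPM in M3 and 273 and 280 in M4, a 2.65-fold fall (adjusted p = 0.0129). RPS27A fell 2.16-fold (adjusted p = 0.00920) and RPS7, a 40S protein that can bind MDM2, fell 2.14-fold (adjusted p = 0.0115). RPL13A fell by 1.11 on the log2 scale (adjusted p = 0.0268). M3 replicate 2 decided much of this: without it 80 members were called and the core median was −1.01, and without M3 replicate 1 the count was 10 and the median −0.29. The count was 1 without M4 replicate 1, 2 without M4 replicate 2, 7 without either M2 library, 7 without M1 replicate 2 and M2 replicate 1, 3 with them exchanged and 44 with DESeq2.

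Between M1 and M2, which were both grown with EGF, the core genes did not pass the test. None of 77 was called (edgeR, 5 at an unadjusted p under 0.05, and DESeq2 called 1 core gene, lower), while 4.83% of all genes tested were called, 1.46% lower and 3.37% higher. The core median was −0.36, 75 of 77 fitted changes were below 0, and in 67 of 77 both M2 libraries were below both M1 libraries, which held for 30.6% of all genes tested. The direction rests on the labels of 2 libraries: with M1 replicate 2 and M2 replicate 1 exchanged, the core median was 0.11, and without them it was −0.22. Core genes called, all lower, numbered 1 in a fit of M1 and M2 alone, 2 with no filter on low counts, and 4 and 5 without M3 replicate 1 and M3 replicate 2. The 2 members called were the paralogs RPL22L1 and RPL39L, both higher. That count was 0 without M1 replicate 1 or without either M2 library, 1 without M1 replicate 2 or without either M4 library, and 6 and 7 without M3 replicate 1 and M3 replicate 2.

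In M3 against M1, 8 members were called, where 21.3% of all genes tested were called, 12.9% higher and 8.33% lower, and 2 passed a 2-fold limit as well, against 13.5% of all genes. The 3 core genes called were all lower: RPL28 with a log2 fold change of −0.94 (SE 0.205, adjusted p = 0.0173), RPL13A with −0.91 (SE 0.257, adjusted p = 0.0410) and RPS28, a 40S protein of the mRNA exit region, with −0.74 (SE 0.196, adjusted p = 0.0333). RPL28 had 982 and 670 CPM in M3, with no overlap with M1. Without M1 replicate 2 neither RPL28 nor RPL13A was called (adjusted p = 0.0594 and 0.131). The 5 paralogs called, RPL39L, RPL22L1, RPL26L1, RPL36AL and RPS27L, were all higher. The core median was −0.37, but it was −0.80 without M3 replicate 1, where 61 members were called, and −0.04 without M3 replicate 2, where 9 were. The count was 3 without either M1 or M2 library and 4 without either M4 library, 1 without M1 replicate 2 and M2 replicate 1, and 0 with them exchanged.

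In M3 against M2, 5.55% of all genes tested were called, 3.98% higher and 1.56% lower, and no member was (edgeR, 6 of 87 members at an unadjusted p under 0.05, and DESeq2 called 2). The core median was −0.04. The 4 highest fitted changes were those of RPL39L at 1.06 (adjusted p = 0.0652), RPL36AL at 0.75 (adjusted p = 0.0635), RPS29 at 0.62 and RPL24 at 0.55. The 4 lowest were RPL3L at −0.80, RPL28 at −0.47, the readthrough RPL36A-HNRNPH2 at −0.39 and RPS28 at −0.31. The median was −0.46 without M3 replicate 1 and 0.27 without M3 replicate 2. The count was 6 without M3 replicate 2 and 1 without M3 replicate 1 or either M1 library.

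**Figure D3:**
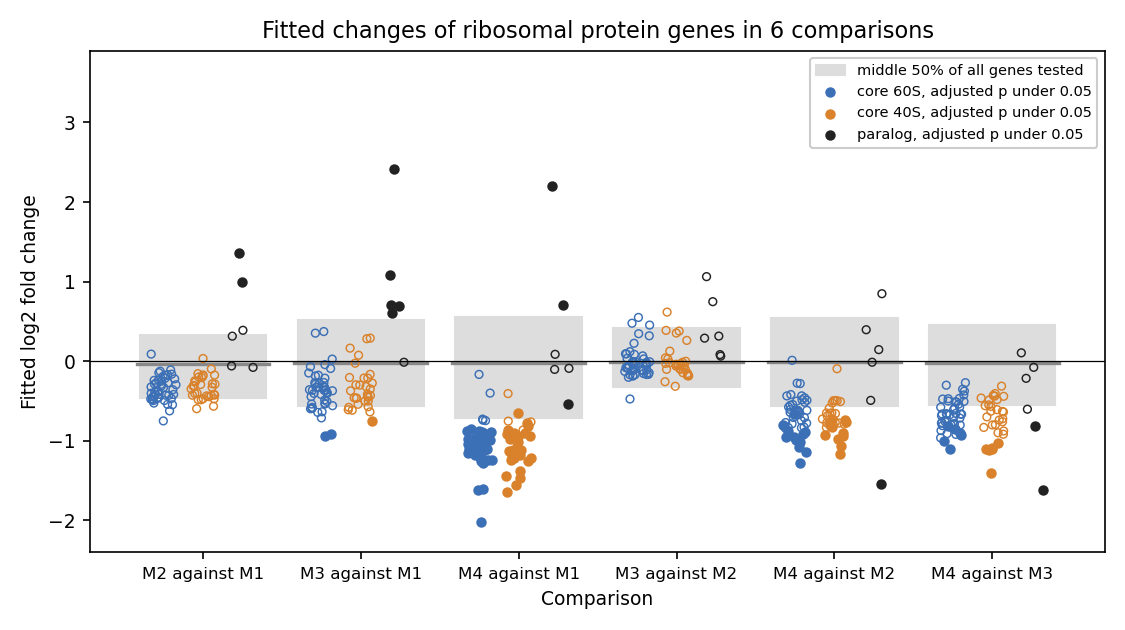
Fitted log2 fold change of the core 60S (blue), core 40S (orange) and paralog (black) genes in the 6 comparisons; filled points have an adjusted p under 0.05 (edgeR) and open points do not, the grey box is the middle 50% of all 18431 genes tested with their median as a line, and RPL3L, with at most 17 counts a library, is left out. The core genes centre on −1.03 in M4 against M1, −0.71 in M4 against M2 and −0.67 in M4 against M3, while several paralogs lie above 0.

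Several paralogs were higher where core genes were lower. Of 7 tested, 2 were called higher in M2 against M1 (3.37% of all genes), 5 in M3 against M1 (12.9%) and 2 in M4 against M1 (15.6%), where 1 was called lower (15.8%). RPL39L (ENSG00000163923, GRCh37 chr3:186838736-186898696), the paralog of the exit-tunnel protein RPL39 best known from male germ cells, had 7.06 and 11.1 CPM in M1 and 24.0 and 22.5 in M2, against 59.9 and 37.1 CPM in M3 and 41.6 and 42.03 in M4. All 6 libraries of the derived lines were above both M1 libraries. RPL39L was 2.56-fold higher in M2 (adjusted p = 0.0358), 5.34-fold higher in M3 (adjusted p = 0.00182) and 4.61-fold higher in M4 (adjusted p = 0.00148) than in M1. With M1 replicate 2 and M2 replicate 1 exchanged these were not called (adjusted p = 1.0, 0.199 and 0.159, log2 fold changes 0.11, 1.64 and 1.43). The RPL39L call in M2 was also lost in a fit of M1 and M2 alone (adjusted p = 0.0565), without M1 replicate 1 (adjusted p = 0.0975), without either M2 library (adjusted p = 0.216 and 0.188) and without both libraries in doubt (adjusted p = 0.130). RPL39L lies on 3q, and less the median of the other coding genes there its log2 changes were 1.34, 1.83 and 1.59. RPL39 itself had 952 and 1189 CPM in M1 and 423 and 486 in M4, and fell by 1.24 on the log2 scale (adjusted p = 0.0150).

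RPL22L1 (ENSG00000163584, GRCh37 chr3:170582664-170587997), the paralog of the RNA-binding 60S protein RPL22, had 110.5 and 100.3 CPM in M1 and 210.0 and 211.9 in M2, against 249.1 and 198.0 CPM in M3 and 63.7 and 81.6 in M4. It was high in all 4 libraries of M2 and M3, and the M4 libraries were the lowest. The rise was 2.00-fold in M2 (adjusted p = 0.0213) and 2.12-fold in M3 (adjusted p = 0.00570) against M1. In M4 it was 3.08-fold lower than in M3 (adjusted p = 0.00264), 2.90-fold lower than in M2 (adjusted p = 0.00165) and 1.45-fold lower than in M1 (adjusted p = 0.0490). RPL22L1 shares the arm 3q with RPL39L. Its log2 changes from M1 were 1.001 for M2, 1.085 for M3 and −0.54 for M4. Less the arm's median of other coding genes, they became 0.99, 0.50 and −1.15. The M3 rise was thus smaller than the M2 rise on this scale, and the M4 fall was larger than its fold value shows. The RPL22L1 call in M2 against M1 was lost without any 1 of the M1 and M2 libraries (adjusted p from 0.0519 to 0.183). The call in M4 against M1 was lost without either M1 library or either M4 library, with adjusted p from 0.0584 to 0.245, and with another scaling of the libraries (adjusted p = 0.0520). With the 2 libraries exchanged RPL22L1 was called in none of these comparisons, and the M2 against M1 change became −0.04. The core gene RPL22 had 678 and 831 CPM in M1 and 362 and 401.5 in M4, and it fell by 0.98 on the log2 scale (adjusted p = 0.00909).

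RPS27L, a paralog of RPS27, had 73.3 and 72.5 CPM in M1 and 87.6 and 93.8 in M2, against 129.3 and 92.5 CPM in M3 and 116.1 and 122.5 in M4. RPS27L lies on 15q, and less the median of the other coding genes there its log2 changes against M1 were 0.34 in M2, 0.25 in M3 and 0.74 in M4. It rose 1.64-fold in M4 against M1 (adjusted p = 0.0173), a call lost without M1 replicate 2 and without either M4 library (adjusted p from 0.0575 to 0.0755), with the 2 libraries in doubt left out (adjusted p = 0.135) and with them exchanged (adjusted p = 0.159), while RPS27 fell by 1.25 on the log2 scale (adjusted p = 0.00315). RPL26L1 and RPL36AL rose 1.63-fold and 1.61-fold in M3 against M1 (adjusted p = 0.0198 and 0.0379) and had log2 fold changes of −0.10 and 0.09 in M4. Without M1 replicate 1 neither RPL26L1 nor RPL36AL was called in M3 (adjusted p = 0.0718 and 0.105), nor in a fit of M1 and M3 alone (adjusted p = 0.0948 and 0.139) or with the 2 libraries in doubt left out or exchanged (adjusted p from 0.117 to 0.306). RPL36AL was also not called without M1 replicate 2 (adjusted p = 0.103) or M3 replicate 1 (adjusted p = 0.0785). RPL7L1 stayed between 199 and 231 CPM in all 8 libraries, while its parent RPL7 fell by 1.03 in M4 against M1 (adjusted p = 0.0162). RPL3L, the striated muscle paralog of RPL3, had 1 to 17 counts per library and was not called in any comparison, while RPL3 fell by 1.25 in M4 (adjusted p = 0.0117). RPL10L was listed at 0 in all 8 libraries, and RPL10 fell by 0.89 (adjusted p = 0.0307). Among the remaining members, the readthrough RPL17-C18orf32 was called lower in M4 against M2 and M3 (log2 fold changes −0.77 and −0.66), RPL36A-HNRNPH2 had at most 1.38 CPM, and RPS19BP1 stayed between 65.7 and 89.9 CPM without a call.

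The ratio of paralog to parent also differed between lines. Per length, RPL39L reached 0.448% ± 0.0726 (SD, n = 2) of the TPM of RPL39 in M1 and 1.54% ± 0.184 in M2, then 3.08% ± 0.299 in M3 and 4.94% ± 0.447 in M4. No line overlapped another in this ratio as labelled, while with M1 replicate 2 (0.4995%) and M2 replicate 1 (1.67%) exchanged M1 and M2 would overlap. RPL22L1 reached 15.4% ± 3.25 of RPL22 in M1 and 37.9% ± 0.200 in M2, then 42.9% ± 3.01 in M3 and 20.5% ± 2.09 in M4. RPL36AL reached 27.8% ± 5.94 of RPL36A in M1 and 62.4% ± 6.93 in M4, and RPL7L1 2.35% ± 0.309 of RPL7 and 4.502% ± 0.173. RPS27L reached 0.333% ± 0.0199 of RPS27 in M1 and 1.29% ± 0.0364 in M4, and RPL26L1 1.56% ± 0.186 of RPL26 and 3.19% ± 0.393. In M4 against M1 the parents RPL22, RPL26, RPL36A and RPL7 had log2 fold changes of −0.98, −1.14, −1.11 and −1.03. Their paralogs RPL22L1, RPL26L1, RPL36AL and RPL7L1 had −0.54, −0.10, 0.09 and −0.09, so a higher ratio need not be a rise of the paralog. The height of each ratio depends on the annotated lengths, its course across lines does not, and none was tested.

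**Figure D4:**
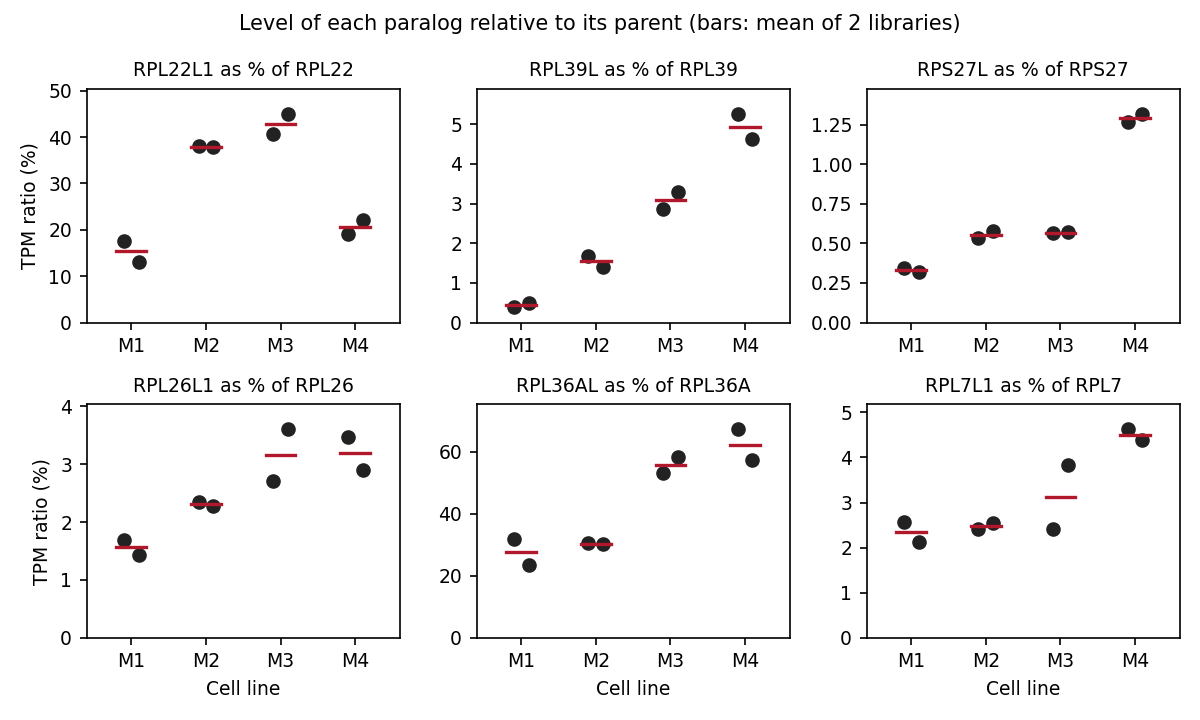
TPM of each paralog as a percentage of the TPM of its parent gene, by cell line; points are the 2 libraries of a line and red bars their mean. All 6 ratios are higher in M4 than in M1, while of these paralogs only RPL39L and RPS27L were themselves called higher there. RPL22L1 is highest relative to RPL22 in M2 and M3, at 37.9% and 42.9%.

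Other genes of the translation machinery were followed by fixed lists. Of 19 further mRNAs known to carry a TOP motif, 13 fell in M4 against M1, where 15.8% of all genes fell, and none rose, with a median of −0.79. The largest falls were in EEF1G (−1.11, adjusted p = 0.0157), a subunit of the elongation factor that recharges EEF1A, and in the initiation factor subunits EIF3L (−1.09, adjusted p = 0.00924) and EIF3E (−1.05, adjusted p = 0.00509). In M3 against M1, 4 of the 19 fell (8.33% of all genes), and in M2 against M1 none was called (edgeR, 8 at an unadjusted p under 0.05). The median in M4 against M2 was −0.32, with 2 falling, a share near the 11.1% of all genes.

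Genes that act in ribosome assembly and rRNA synthesis did not fall with the core genes. Of 39 tested assembly factors, 10 rose and 2 fell in M4 against M1, with a median of 0.32, while 15.6% of all genes rose and 15.8% fell, so that the share called was near that of all genes (31.4%). TCOF1, which acts in rRNA transcription and processing, had 97.7 and 95.5 CPM in M1 and 286 and 325 in M4, a rise of 1.66 on the log2 scale (adjusted p = 0.000425), and it was also higher in M2 and in M3 than in M1 (1.20 and 1.37, adjusted p = 0.00842 and 0.00147). RRP12 and EBNA1BP2 rose by 0.93 and 0.91 in M4 against M1 (adjusted p = 0.00399 and 0.00218). FBL, the methyltransferase of box C/D snoRNPs, lies on 19q and fell by 1.07 in M4 against M2 (adjusted p = 0.00592). Of 14 genes of RNA polymerase I and its factors, 1 was called in M4 against M1, fewer than the 31.4% of all genes, namely TAF1A, which rose by 1.40 (adjusted p = 0.00883).

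Of 17 genes of the mTORC1, S6 kinase, LARP1 and MYC list, 4 rose and none fell in M4 against M1, where 15.6% of all genes rose and 15.8% fell. The share that rose was above that of all genes, and the share called in either direction was below the 31.4% of all genes. The larger rises were those of EIF4EBP1 (0.90, adjusted p = 0.0232) and the kinase gene RPS6KA3 (0.82, adjusted p = 0.00486). MYC had 411 and 431 CPM in M1 and 252 and 362 in M4, and LARP1 332 and 308 CPM in M1 and 364 and 511 in M4, and neither was called. MDM2, the ubiquitin ligase that free RPL5 and RPL11 bind, rose by 2.11 (adjusted p = 0.000334), with 64.2 and 48.5 CPM in M1 and 221 and 266 in M4, while CDKN1A, an inhibitor of cyclin-dependent kinases, fell by 1.36 on the log2 scale (adjusted p = 0.00216). Of the 4 genes of the p53 and MDM2 list, 1 was called higher and 2 lower in M4 against M1, against 15.6% and 15.8% of all genes. The lowest fitted change of that list, −1.705, was that of a further gene.

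The mitochondrial ribosome, built from a separate set of nuclear genes, did not show the core genes' fall in M4 against M1. Of 76 mitochondrial ribosomal protein genes, 6 rose and 8 fell in M4 against M1, with a median of −0.04, both below the shares of all genes (15.6% and 15.8%). In M3 against M1, 21 rose and none fell (12.9% and 8.33% of all genes), with a median of 0.30, led by MRPL3 (1.14, adjusted p = 0.00147) and MRPL33 (1.09, adjusted p = 0.00442). In M4 against M2, 2 rose and 21 fell (11.1% of all genes each way), with a median of −0.29. In M4 against M3, 1 rose and 19 fell (7.05% and 9.72% of all genes), with a median of −0.28.

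**Figure D5:**
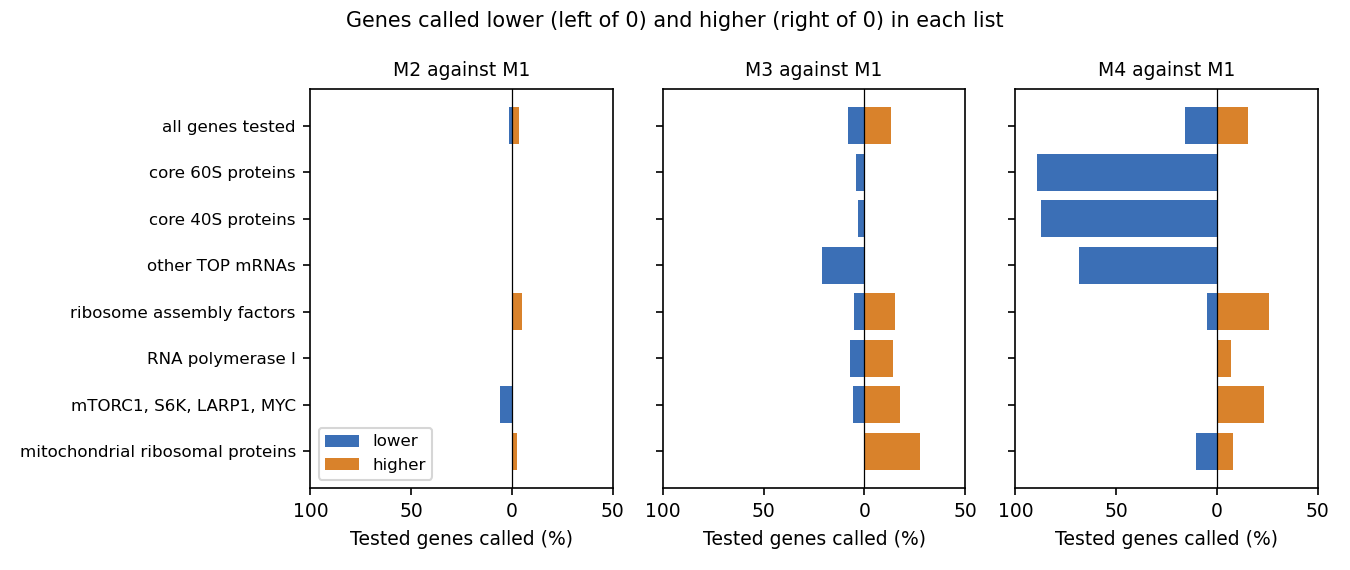
Percentage of the tested genes of each list called lower (blue, left) and higher (orange, right) by edgeR in M2, M3 and M4 against M1, which share the M1 libraries. In M4 against M1 most core 60S, core 40S and other TOP genes are lower, whereas 10 of 39 assembly factors are higher and all genes tested are split evenly, 15.8% lower and 15.6% higher.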

How the data were processed

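Polyadenylated RNA of the lines M1 to M4, 2 replicates each, was sequenced and analysed from the deposited table of expected counts per gene. Per the labels and the study's methods, the authors trimmed paired-end reads with Trimmomatic, aligned them to hg19 (GRCh37) with STAR and estimated counts with RSEM on GENCODE v19. Picard is also named. Tool versions and the use of strand are not given in the sources used here. RSEM divides reads that match several genes, and 70 of the 77 core genes had a count that was not whole, so values of genes with abundant pseudogenes depend on that step.

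Counts were rounded. Genes were named, placed and measured with GENCODE release 44 on GRCh37. edgeR 4.0.16 was run in R 4.3.3 with its quasi-likelihood test (robust, TMM scaling, filterByExpr, 1 coefficient per line, all 8 libraries), with Benjamini-Hochberg adjustment over 18431 genes in each comparison, and genes under 0.05 were called. SE follows from the F statistic. DESeq2 1.42.0 was an alternative, and the others are named in the closing section. P-values rest on the spread between the 2 biological replicates of a line, in an estimate shared by all 4 lines, including those not compared. The counting error at these depths is small beside that spread. TPM, shares, paralog ratios and start tracts were not tested. The fits were checked on simulated data. Replicate numbers were not treated as pairs, since the deviations of same-numbered libraries correlated from −0.088 to 0.255.

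The members and lists were chosen with earlier results of these data known. Named genes were all members called in a comparison up to 10, otherwise the 6 largest changes each way with no overlap between the lines, the 4 highest and lowest where none was called, the paralog pairs, stalk genes, RPL5, RPL11, RPS6 and RPSA, the 5 highest and lowest levels, and up to 3 called genes of each other list. RPL35A, RPS19, RPS20 and the other core genes not called, and 19q, 3q, 9p and 2p, were added after their values were seen, as were FAU, MYC and LARP1. Some genes these rules name are not reported here.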

Additional observations from a re-analysis of the deposited data

How the results depend on the processing

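The processing was varied by scaling to median ratios (RLE), by total counts, DESeq2, other count filters, a replicate block, a fit of the 2 lines compared, a 2-fold limit, summing parents with pseudogenes, leaving out each library, and leaving out or exchanging M1 replicate 2 and M2 replicate 1. The arm median was an alternative added after seeing the data. In M4 against M1 the core median was −1.12 to −0.81 in every fit. Leaving out 1 library at a time gave 0 to 7 members called and a core median of −0.47 to −0.21 in M2 against M1, 3 to 61 and −0.80 to −0.039 in M3 against M1, 10 to 78 and −1.12 to −0.91 in M4 against M1, 0 to 6 and −0.46 to 0.27 in M3 against M2, 1 to 75 and −0.73 to −0.65 in M4 against M2, and 1 to 80 and −1.01 to −0.29 in M4 against M3. A fit that leaves 1 library in a line assumes that it varies like the others.

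Without the 2 libraries in doubt, 0 members were called in M2 against M1, 1 in M3 against M1, 9 in M4 against M1, 1 in M4 against M2 and 7 in M4 against M3. With them exchanged the counts were 0, 0, 3, 11 and 3, the core median of M2 against M1 was 0.11, and RPL22L1 was at −0.038 there. With a 2-fold limit 2 members passed in M3 against M1, 45 in M4 against M1, 7 in M4 against M2 and 9 in M4 against M3. With no filter on low counts the counts were 4 in M2 against M1, 20 in M3 against M1, 3 in M3 against M2, 62 in M4 against M2 and 58 in M4 against M3. DESeq2 called 2 in M3 against M2, 47 in M4 against M2 and 44 in M4 against M3. A fit of only the lines compared called 2 in M3 against M1, 80 in M4 against M2 and 6 in M4 against M3. With the replicate block 1 member was called in M2 against M1, 15 in M4 against M2 and 69 in M4 against M1, and the counts of other comparisons stayed within 1.5 times. The block also ended the call of RPL39L in M2 against M1 (adjusted p = 0.0503), of RPL13A and RPS27L in M3 against M1 (0.0575 and 0.0550) and of RPL22L1 in M4 against M1 (0.0669), and of some core genes in M4 against M2 and M3. The numbers do not pair the libraries. The share of counts in core genes in M2 was 12.14% of the coding rows and 12.13% with pseudogenes added. Start tracts of at least 8 were in 72.6% of core promoters. Except for the fits without the libraries themselves, which hold fewer samples, the cause was not tested.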
